A study of Homo sapiens with 6 samples.

Results

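The genes described here encode the SMAD proteins and 3 receptors of the transforming growth factor beta (TGF-beta) and bone morphogenetic protein (BMP) pathways. They are SMAD1, SMAD2, SMAD3, SMAD4, SMAD5, SMAD6, SMAD7, TGFBR1, TGFBR2 and BMPR2, taken by gene symbol from tables of 62754 genes, and each of the 10 was found once. RNA was measured by poly(A) RNA sequencing in HUDEP-2, an immortalised human erythroid progenitor cell line, as 3 libraries from cells given a lentiviral shRNA against MEN1 and 3 from cells given a non-targeting shRNA. The genotype labels are MEN1 knockdown and WT, the MEN1 shRNA libraries are called the knockdown below, and the titles name 1 MEN1 hairpin (MEN1sh2) and call the replicates biological. Whether they were transduced separately is not stated, so p-values measure the spread between these samples. Both groups grew in StemSpan SFEM with dexamethasone, EPO at 3 units/ml, SCF at 50 ng/ml and doxycycline at 1 µg/ml. Both were selected with puromycin at 2 µg/ml from 24 h after infection for 48 h, and were profiled at 72 h. The labels name no added ligand of either pathway, and phosphorylation of SMAD proteins was not measured, so the values are levels of RNA and not of signalling. With a single hairpin, an effect of losing MEN1 and an off-target effect of the hairpin cannot be told apart.

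TGF-beta and BMP ligands bind pairs of type II and type I serine/threonine kinase receptors on the cell surface. The type II receptor phosphorylates the type I receptor, which then phosphorylates receptor-regulated SMADs: SMAD2 and SMAD3 in the TGF-beta branch, and SMAD1, SMAD5 and SMAD9 (also called SMAD8) in the BMP branch. These join the common partner SMAD4 and enter the nucleus to control transcription, while SMAD6 and SMAD7 inhibit the pathway and are themselves induced by it in many cells. In red cell formation, TGF-beta is known to slow the growth of progenitors and to favour their maturation, and BMP signals act in the stress response of the spleen and bone marrow. Menin, the product of MEN1, binds MLL1 and MLL2 at promoters and has also been reported to bind SMAD proteins.

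MEN1 (ENSG00000133895, chromosome 11, 64803510 to 64811294, minus strand) checks the labels. Its level was 6.29, 6.44 and 6.88 TPM (transcripts per 1000000, a level scaled by transcript length and library size) in the MEN1 shRNA libraries and 41.2, 39.6 and 37.1 TPM in the controls. All 3 libraries of the knockdown lay below all 3 controls. The mean fell to 16.6% of control, with a log2 fold change of -2.42 ± 0.0803 (SE) and an adjusted p of 8.5e-06.

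Library depth was 5560000000 to 10810000000 aligned bases, and 13865 to 14361 genes per library reached 1 TPM. The RNA of the 2 groups differed across much of the transcriptome: 7657 of the 14294 tested genes, or 53.6%, had an adjusted p under 0.05, with 31.5% lower and 22.1% higher with the MEN1 shRNA. The share of these calls that were higher was 41.2%, and it was 49.5% under median-of-ratios scaling and 47.2% once globin and mitochondrial genes were left out of the TPM total, so the excess of lower genes depends on the scaling. The cells carried erythroid markers in both groups, and 7 of the 10 on the list rose while none fell. Their summed level ran from 55168 to 60997 TPM in the knockdown and from 32670 to 38213 TPM in the controls, most of it HBB (beta-globin). Of 6 markers of early progenitors, 5 were tested and 5 fell, and their summed level ran from 308 to 352 TPM against 762 to 829 TPM. CD34, the marker left untested, was at most 0.0218 and 0.750 TPM. The part of this shift in the differences below was not tested. These are bulk samples, in which fewer cells of a type and less RNA per cell cannot be told apart.

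Promoter sequences were taken from RefSeq on GRCh38.p14 as 250 bases before to 50 bases after a start site. For each gene the entry nearest the 5′ end given in the tables was used, and all 10 genes had an entry. The entries of SMAD3, SMAD4 and SMAD2 start 1839, 1685 and 274 bases from that end. Their windows do not reach it, and their motif matches are for those windows. The promoters of SMAD1, SMAD5 and TGFBR2 are shown because these genes fell to the lowest shares of control among the 8 that were tested, and that of SMAD6 because it alone held the palindromic SMAD site. All 4 are on the plus strand, at chr4:145481056-145481355 (SMAD1), chr5:136132595-136132894 (SMAD5), chr3:30606351-30606650 (TGFBR2) and chr15:66701986-66702285 (SMAD6). The SMAD1 entry is 1 of 5 for that gene and its start lies 112 bases from the one in the tables. Sequences run 5′ to 3′, and capitals mark a match, on either strand, to the motifs searched: GTCTAGAC (the palindromic SMAD site), GGCGCC (a GC-rich SMAD site), CACGTG (the E-box bound by MYC and its partners), GGGCGG (the GC box bound by SP factors) and AGATAA (the site of a family of erythroid zinc finger factors).
SMAD1: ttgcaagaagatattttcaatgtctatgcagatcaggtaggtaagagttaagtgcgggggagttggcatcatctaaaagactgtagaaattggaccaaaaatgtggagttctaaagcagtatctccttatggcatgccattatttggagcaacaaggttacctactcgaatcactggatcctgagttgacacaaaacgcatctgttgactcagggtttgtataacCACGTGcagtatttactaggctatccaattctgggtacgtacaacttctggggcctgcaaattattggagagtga
SMAD5: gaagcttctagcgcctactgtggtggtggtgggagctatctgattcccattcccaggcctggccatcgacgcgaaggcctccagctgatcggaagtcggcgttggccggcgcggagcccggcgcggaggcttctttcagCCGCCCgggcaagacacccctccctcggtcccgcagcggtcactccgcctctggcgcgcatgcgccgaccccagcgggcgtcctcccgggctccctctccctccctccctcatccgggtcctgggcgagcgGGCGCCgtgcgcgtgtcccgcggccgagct
TGFBR2: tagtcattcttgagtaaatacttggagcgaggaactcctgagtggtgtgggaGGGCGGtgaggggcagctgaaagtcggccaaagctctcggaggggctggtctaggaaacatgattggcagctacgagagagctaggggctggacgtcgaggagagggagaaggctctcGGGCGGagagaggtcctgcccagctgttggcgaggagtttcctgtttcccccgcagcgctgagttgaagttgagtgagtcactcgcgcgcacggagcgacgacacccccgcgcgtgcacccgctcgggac
SMAD6: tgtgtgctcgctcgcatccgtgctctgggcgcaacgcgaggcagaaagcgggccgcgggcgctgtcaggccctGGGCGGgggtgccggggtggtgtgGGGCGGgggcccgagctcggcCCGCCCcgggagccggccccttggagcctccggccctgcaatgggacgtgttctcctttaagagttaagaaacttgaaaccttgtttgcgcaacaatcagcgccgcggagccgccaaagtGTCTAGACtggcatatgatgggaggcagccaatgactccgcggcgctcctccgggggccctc

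The SMAD1 promoter held only an E-box, and 126 of its 300 bases were G or C, while the median share over all 35116 promoters in the table was 58.7%. The SMAD5 promoter, at 72.0% G and C, held a GC box and a GC-rich SMAD site after the start. The TGFBR2 promoter, at 61.7%, held 2 GC boxes and none of the other motifs. The palindromic SMAD site was in 1 of the 10 promoters and in 0.202% of all promoters, and in SMAD6 it began at position -12 from the start. The GC box was in 7 of the 10 and in 15786 of the 35116, the GC-rich SMAD site in 5 and in 19.2%, the E-box in 2 (SMAD1 and SMAD3) and in 7.26%, and the zinc finger site in none of the 10 and in 10.3%. No motif of the 5 was in all 3 promoters of SMAD1, SMAD5 and TGFBR2. A match is a match of letters in these windows and not a measured binding site.

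The comparison of the MEN1 shRNA with the control asks how RNA for each receptor and SMAD stood after the knockdown. Of the 10 genes, 8 had a TPM of 1 or more in all 6 libraries and were tested. Of these, 5 fell (TGFBR2, SMAD1, SMAD5, SMAD3 and BMPR2), 1 rose (SMAD4), and SMAD2 and TGFBR1 did not pass. The 6 of 8 that passed stand beside 53.6% of all genes, and the 5 of 8 that fell beside 31.5%. The same 6 genes were those whose groups did not overlap, beside 61.8% of all genes tested (35.9% lower and 25.8% higher). TGFBR2 and SMAD1 were also at least 2-fold lower, which held for 6.90% of all genes, and none of the 8 was 2-fold higher, beside 4.96% of all. The median log2 fold change of the 8 was -0.43, against -0.07 over all tested genes. SMAD6 and SMAD7 were below the filter in every library and were not tested.

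**Figure D1:**
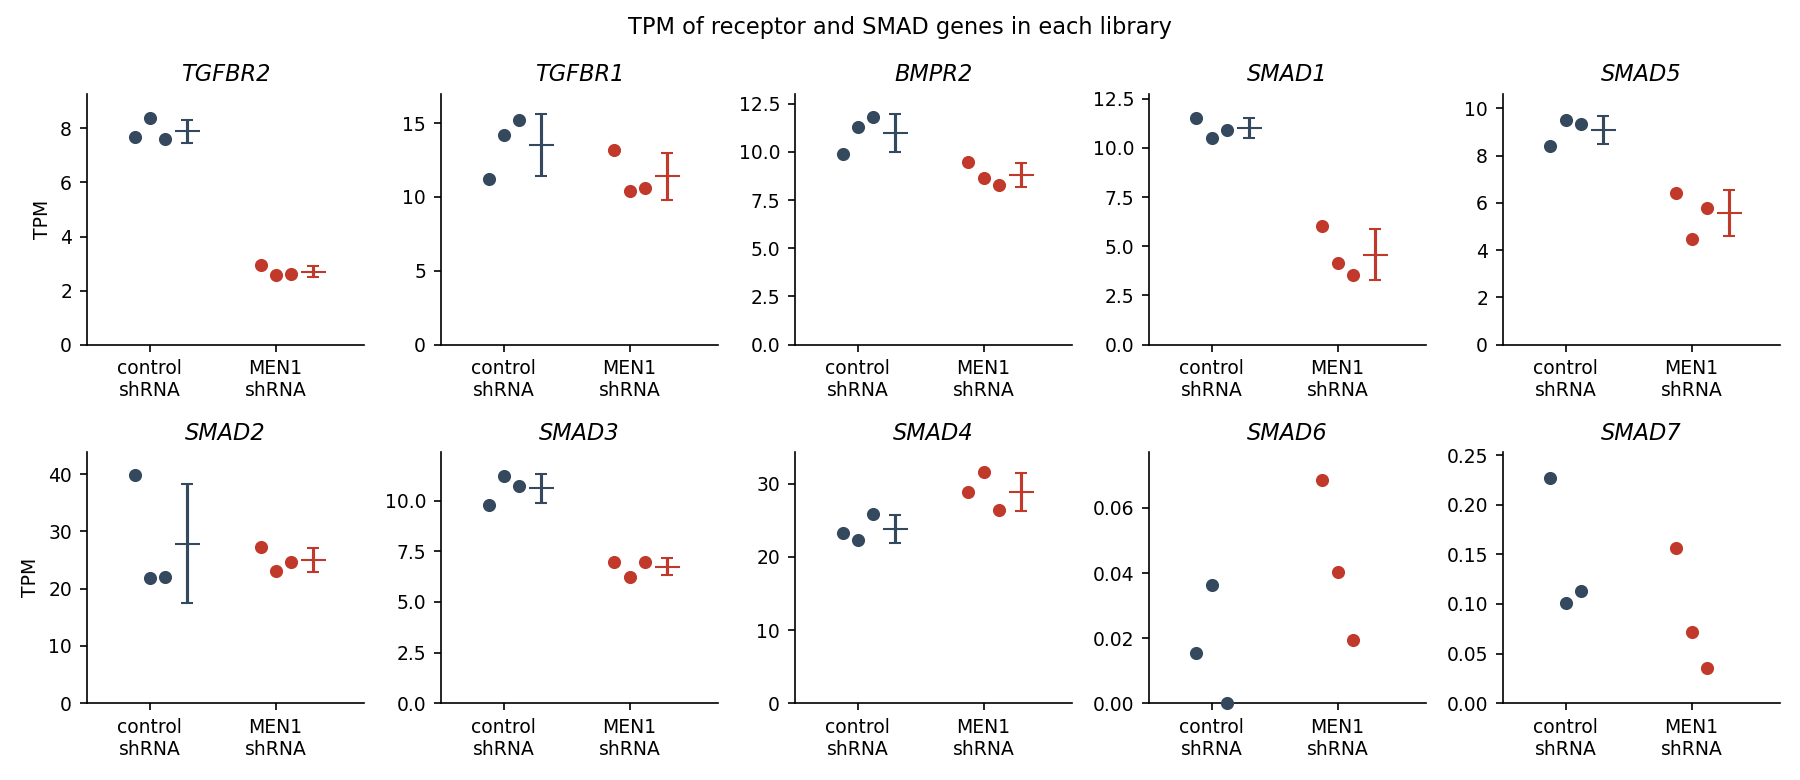
TPM (y axes, each from 0 and on its own scale) of the 10 genes in the 3 control shRNA (dark) and 3 MEN1 shRNA (red) libraries, with each point 1 library and, for the 8 tested genes, the mean and SD beside the points. TGFBR2 falls from 7.89 to 2.70 TPM and SMAD1 from 11.0 to 4.56 TPM with no overlap, 1 control library of SMAD2 stands apart at 39.9 TPM, and SMAD6 and SMAD7 stay below 0.3 TPM in both groups.

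Among the 3 receptors, the largest change was in TGFBR2 (ENSG00000163513, chromosome 3, 30606601 to 30694142, plus strand), the type II receptor that binds TGF-beta. Its level was 2.94, 2.57 and 2.61 TPM in the knockdown and 7.68, 8.39 and 7.60 TPM in the controls. The 3 knockdown libraries lay close together and far below every control. The mean dropped to 34.3% of control, from 7.89 ± 0.437 to 2.70 ± 0.202 TPM (SD, n = 3 each). The log2 fold change was -1.26 (95% interval -1.52 to -1.01, adjusted p 8.8e-05), on the log2(TPM + 1) scale, which understates the change of genes at low TPM.

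TGFBR1 (ENSG00000106799, chromosome 9, 99104038 to 99154192, plus strand) encodes the type I receptor that TGFBR2 activates. It measured 13.2, 10.4 and 10.6 TPM in the knockdown and 11.2, 14.2 and 15.2 TPM in the controls. The highest knockdown library lay above the lowest control, so the groups overlapped. Its log2 fold change of -0.23 (95% interval -0.55 to 0.10) had an adjusted p of 0.215. The gene's deposited coverage gave a different answer, described further on.

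TGFBR1 and TGFBR2 act as a complex, so their ratio was taken within each library. The control libraries held 1.45, 1.69 and 2.00 TPM of TGFBR1 per TPM of TGFBR2, and the MEN1 shRNA libraries 4.50, 4.04 and 4.05. All ratios with the MEN1 shRNA were above all controls. The difference was 1.30 on the log2 scale, and the exact permutation test (2-sided) gave a p of 0.1, its minimum for 3 against 3, and 0.15 after adjustment over the 3 pairs compared.

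BMPR2 (ENSG00000204217, chromosome 2, 202376327 to 202567751, plus strand), the type II receptor of the BMP branch, measured 9.48, 8.66 and 8.27 TPM in the knockdown and 9.87, 11.3 and 11.8 TPM in the controls. The groups did not overlap, but the highest knockdown library was close to the lowest control. The mean was 80.1% of control, with a log2 fold change of -0.29 (95% interval -0.53 to -0.05) and an adjusted p of 0.0461. This call passed in 6 of 15 alternative analyses, whose adjusted p ran from 0.0330 to 0.145. It was lost on leaving out MEN1 shRNA replicate 2 or 3 or control replicate 2 or 3, and, among other settings, with median-of-ratios scaling, where the log2 fold change was -0.21.

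SMAD1 and SMAD5 carry the BMP signal. SMAD1 (ENSG00000170365, chromosome 4, 145481194 to 145559176, plus strand), whose promoter is printed above, was at 6.01, 4.14 and 3.52 TPM in the knockdown and 11.5, 10.5 and 10.9 TPM in the controls. The controls agreed closely, while the knockdown libraries spread more widely and all lay below them. The mean fell to 41.6% of control, from 11.0 ± 0.511 to 4.56 ± 1.29 TPM (SD, n = 3 each), with a log2 fold change of -1.13 (95% interval -1.51 to -0.74, adjusted p 0.000876).

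SMAD5 (ENSG00000113658, chromosome 5, 136132845 to 136188747, plus strand) encodes the close relative of SMAD1 and measured 6.40, 4.49 and 5.78 TPM against 8.42, 9.52 and 9.33 TPM in the controls. The groups did not overlap. The mean fell to 61.1% of control, with a log2 fold change of -0.63 (95% interval -0.94 to -0.32, adjusted p 0.00521).

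Added together, SMAD1 and SMAD5 reached 12.4, 8.63 and 9.31 TPM with the MEN1 shRNA against 19.9, 20.0 and 20.2 TPM in the controls. The control sums were almost equal, and each knockdown sum was lower than all of them. Within a library, SMAD1 stood at 0.938, 0.922 and 0.609 of SMAD5 in the knockdown and 1.37, 1.10 and 1.17 in the controls. In TPM, SMAD1 was thus the higher of the pair in every control and the lower in every knockdown library. By the deposited coverage, described further on, SMAD1 was below SMAD5 in every library. It measured 0.517 to 1.04 against 8.60 to 14.0 in the knockdown and 1.56 to 2.45 against 20.1 to 32.1 in the controls. The log2 difference of the TPM ratio was -0.58, with an exact permutation p of 0.1 and 0.15 after adjustment over the 3 pairs. From gene coverage this difference was -0.22 with a permutation p of 0.4, and from TPM without MEN1 shRNA replicate 3 it was -0.37.

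SMAD9, the third SMAD of the BMP branch, is a gene of the wider pathway list. It was at 1.37, 1.19 and 1.74 TPM in the knockdown and 0.179, 0.489 and 0.378 TPM in the controls. It rose, with a log2 fold change of 0.85 and an adjusted p of 0.00519, but it reached 1 TPM only in the knockdown libraries and was tested through them alone. Even there it stayed below both SMAD1 and SMAD5.

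In the TGF-beta branch, SMAD3 (ENSG00000166949, chromosome 15, 67063763 to 67195173, plus strand) fell. It measured 6.97, 6.25 and 6.99 TPM in the knockdown and 9.79, 11.2 and 10.7 TPM in the controls. The groups were well apart. The mean fell to 63.7% of control, with a log2 fold change of -0.58 (95% interval -0.81 to -0.35, adjusted p 0.00180).

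SMAD2 (ENSG00000175387, chromosome 18, 47808957 to 47931146, minus strand), the other receptor-regulated SMAD of that branch, was at 27.3, 23.1 and 24.7 TPM in the knockdown and 39.9, 21.8 and 22.0 TPM in the controls. Control replicate 1 stood far above the other 5 libraries, which lay between 21.8 and 27.3 TPM. The log2 fold change was -0.10 (95% interval -0.61 to 0.41, adjusted p 0.731), an interval that leaves room for a change of either sign. Without control replicate 1 it was 0.18 with an adjusted p of 0.168. The SMAD2 to SMAD3 ratio was 3.91, 3.70 and 3.53 in the knockdown and 4.08, 1.94 and 2.06 in the controls. The same control library made the groups overlap, and the log2 difference of 0.55 had an exact permutation p of 0.4. That difference was 0.89 without control replicate 1 and 0.36 without control replicate 2.

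**Figure D2:**
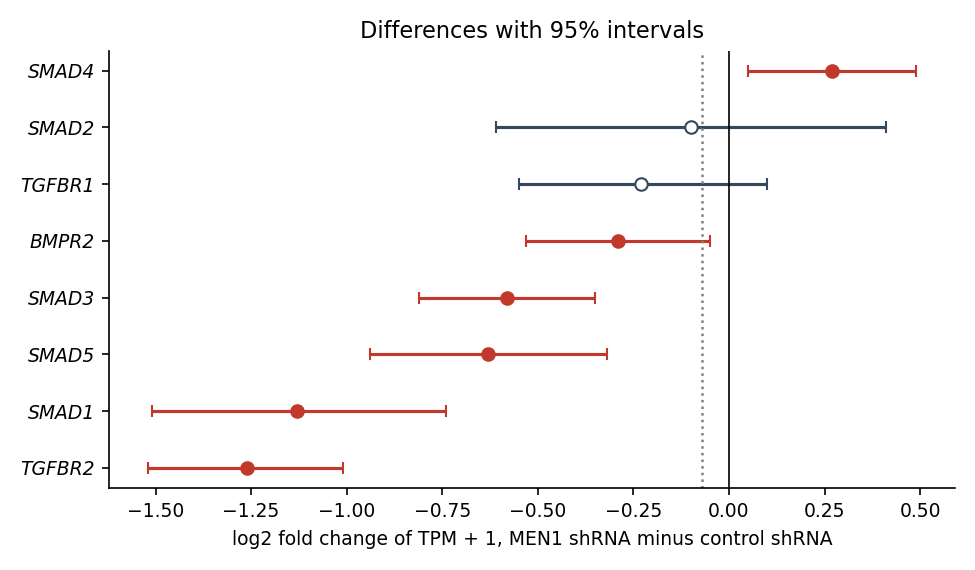
Log2 fold change of TPM + 1 (x axis, MEN1 shRNA minus control shRNA) with 95% intervals for the 8 tested genes, where filled red points passed an adjusted p of 0.05 and open points did not, and the dotted line is the median of all tested genes, -0.07. SMAD1 and TGFBR2 lie beyond -1, SMAD4 lies above 0 at 0.27, and the widest interval is that of SMAD2.

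SMAD4 (ENSG00000141646, chromosome 18, 51028528 to 51085045, plus strand), the partner shared by both branches, was the one tested gene of the 10 with a higher call. Its level was 28.8, 31.6 and 26.4 TPM in the knockdown and 23.2, 22.3 and 25.9 TPM in the controls. The lowest knockdown library was just above the highest control. The mean was 121% of control, with a log2 fold change of 0.27 (95% interval 0.05 to 0.49, adjusted p 0.0417). The call passed in 7 of 15 alternative analyses, with adjusted p from 0.0177 to 0.162. It was lost, among other settings, on leaving out MEN1 shRNA replicate 1 or 2 or control replicate 1 or 2.

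The proportions among SMAD transcripts, in TPM, differed between the groups. SMAD4 stood at 0.618, 0.831 and 0.643 of the sum of SMAD1, SMAD2, SMAD3 and SMAD5 in the knockdown and 0.332, 0.421 and 0.489 in the controls. The groups did not overlap. SMAD1 and SMAD5 made up 26.6%, 22.7% and 22.7% of that sum in the knockdown and 28.6%, 37.7% and 38.2% in the controls, where control replicate 1, with its high SMAD2, was nearest to the knockdown. These are proportions of TPM with no test, made of the same values as the differences above. By gene coverage, described further on, control replicate 1 was the lowest library for SMAD2, and the SMAD4 call was lost.

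The inhibitory SMADs were close to absent from the RNA. SMAD6 (ENSG00000137834, chromosome 15, 66702236 to 66782849, plus strand), which acts mainly against BMP signals, was at 0.0687, 0.0402 and 0.0193 TPM in the knockdown and 0.0154 and 0.0362 TPM in 2 controls, and was listed at 0 in control replicate 3. SMAD7 (ENSG00000101665, chromosome 18, 48919853 to 48950965, minus strand), which acts against both branches, was at 0.156, 0.0718 and 0.0350 TPM in the knockdown and 0.227, 0.101 and 0.113 TPM in the controls. The groups overlapped for both. The deposited coverage, a signal per base, was at most 0.125 for SMAD6 and 0.142 for SMAD7. Neither gene was tested, so a difference between groups was not assessed at these levels.

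Ordered by mean TPM, the controls had SMAD2 (27.9) and SMAD4 (23.8) first, with overlapping ranges. TGFBR1 (13.5), BMPR2 (11.0), SMAD1 (11.0) and SMAD3 (10.6) followed, each overlapping with its neighbour in the order. SMAD5 (9.09), TGFBR2 (7.89), SMAD7 and SMAD6 came next, each apart from the one before. With the MEN1 shRNA the order was SMAD4 (28.9) and SMAD2 (25.0), overlapping, then TGFBR1 (11.4) and BMPR2 (8.80), each apart from its neighbours. SMAD3 (6.74), SMAD5 (5.56) and SMAD1 (4.56) overlapped in turn, and TGFBR2 (2.70), SMAD7 and SMAD6 closed the order, the last 2 overlapping. In mean TPM SMAD1 stood above SMAD3 and SMAD5 in the controls and below both in the knockdown, with ranges that overlapped those of SMAD3 in the controls and of SMAD5 in the knockdown, and TGFBR2 was the lowest of the 8 in each group.

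The tables also give each gene's coverage, which did not stand in the same relation to TPM in every gene. In the controls, BMPR2 had a coverage of 33.7 to 48.7 and SMAD3 of 1.31 to 2.08, although their TPM were close. SMAD1 had 1.56 to 2.45. The cause was not tested, and the order of levels given above holds on the TPM scale only. Coverage was therefore used as another measure of the difference between groups, divided by depth and rescaled per gene to its mean TPM, a choice made after the data were seen.

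By this measure control replicate 1 was the lowest library for SMAD2 instead of the highest: SMAD2 measured 27.6, 26.5 and 27.4 in the knockdown and 23.0, 26.6 and 27.7 in the controls, with a log2 fold change of 0.08 and an adjusted p of 0.461. TGFBR1 had groups that did not overlap, 8.10, 11.1 and 11.2 against 12.5, 15.7 and 16.1. Its log2 fold change was -0.51 with an adjusted p of 0.0238, the one alternative of 15 in which it passed. SMAD4 was at 26.9, 27.7 and 28.9 against 21.8, 26.5 and 26.3, with a log2 fold change of 0.16 and an adjusted p of 0.162. SMAD3 kept its call, at 5.81, 5.79 and 5.75 against 11.3, 11.8 and 11.5. SMAD1, SMAD5 and TGFBR2 passed by coverage too, and these 4 passed in all 15 alternatives.

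**Figure D3:**
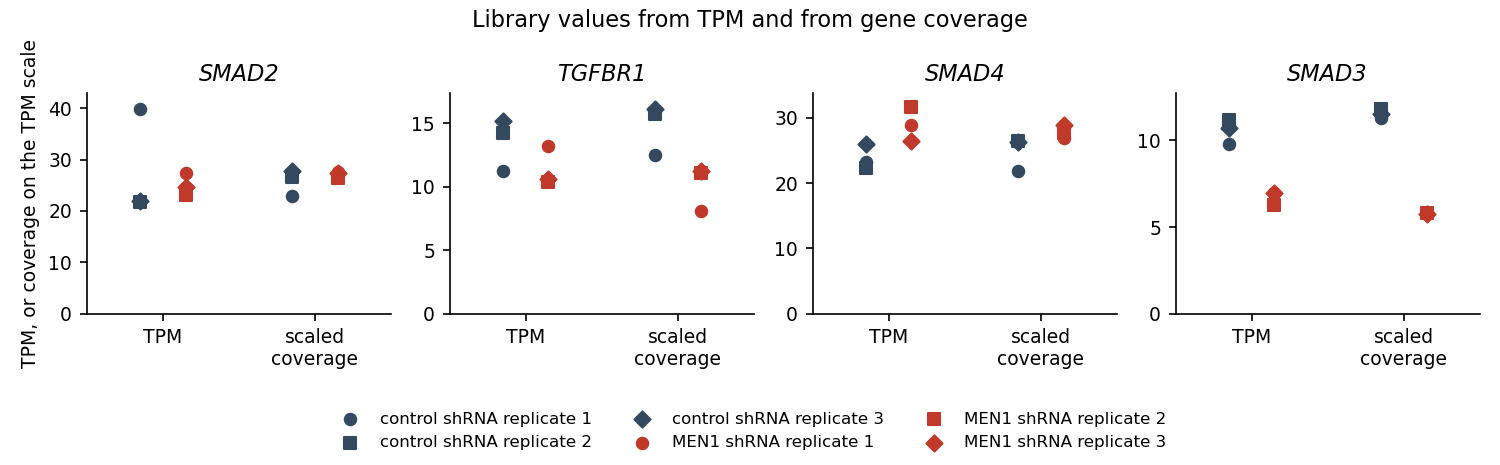
Deposited TPM (left in each panel) and gene coverage divided by depth and rescaled to the gene's mean TPM (right) on the y axis, for SMAD2, TGFBR1, SMAD4 and SMAD3, with each point 1 library, dark for control shRNA and red for MEN1 shRNA, and marker shapes for the replicate. Control replicate 1 of SMAD2 is at 39.9 by TPM and 23.0 by coverage, the TGFBR1 groups overlap by TPM but not by coverage, and the SMAD3 groups are apart by both.

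Genes that overlap a SMAD or receptor gene on the chromosome could share its reads. The highest such gene was the pseudogene MTCO2P2 at SMAD2, at up to 5.27 TPM, followed by ENSG00000267699 at SMAD4 at up to 2.95 TPM and ENSG00000289490 at BMPR2 at up to 2.18 TPM. Those overlapping the other 7 genes were each below 1 TPM.

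The wider pathway was read from 6 lists that hold none of the 10 genes, 95 genes in all. Of these, 56 were tested, 20 rose, 18 fell and 18 did not pass. The share past the threshold was 67.9%, beside 53.6% of all genes, and the median log2 fold change was 0.07. By list it was 66.7% for ligands, 83.3% for other receptors, 90.0% for SMAD partners and 66.7% for intracellular inhibitors. For extracellular regulators (55.6%) and targets (53.8%) it was near that of all genes. The counts by list below, on 6 to 13 tested genes each, stand beside 22.1% higher and 31.5% lower over all genes. Of the 56, 48 had at least 1 TPM in all 6 libraries, and 17 of those rose and 15 fell. The lists were chosen with results of these data known, so their counts describe and do not test.

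Ligand genes were mostly silent: 15 of 21 were below the filter, the highest of them at 0.993 TPM. Of the 6 tested, 2 rose and 2 fell. TGFB1, the most abundant TGF-beta ligand gene here, was at 91.9, 89.9 and 107 TPM in the knockdown and 113, 109 and 89.9 TPM in the controls, which overlapped (adjusted p 0.416; named for its level, after its values were seen). TGFB3, another TGF-beta, fell from 5.22 ± 1.41 to 1.11 ± 0.521 TPM (SD, n = 3 each), a log2 difference of -1.57 (adjusted p 0.000917). GDF11, a ligand that signals through SMAD2 and SMAD3, fell from 5.80 ± 0.879 to 1.42 ± 0.625 TPM, a log2 difference of -1.51 (adjusted p 0.000600).

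GDF15, a distant member of the ligand family that signals through the unrelated receptor GFRAL and is induced by cellular stress, was at 119, 208 and 165 TPM in the knockdown and 14.1, 9.39 and 7.91 TPM in the controls. Every knockdown library was far above every control. Its mean was 15.7-fold higher, with a log2 fold change of 3.85 and an adjusted p of 3.3e-05. AMH, the anti-Müllerian hormone, rose from 0.784 to 2.08 TPM (adjusted p 0.0205), a call lost in 4 of 14 alternatives, MEN1 shRNA replicates 2 and 3 left out in turn among them. It reached 1 TPM in all 3 libraries of the knockdown but in 1 control.

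Of 14 other receptors and co-receptors, 6 were tested, 4 rose and 1 fell, with a median log2 fold change of 0.51. ENG, endoglin, a co-receptor for TGF-beta and BMP9, was at 68.5, 48.1 and 64.9 TPM in the knockdown and 138, 126 and 133 TPM in the controls. It was the most abundant gene of these receptors and fell to 45.8% of control (log2 fold change -1.13, adjusted p 0.000266). AMHR2, the type II receptor for AMH, rose from 8.91 ± 2.25 to 20.8 ± 1.06 TPM, a log2 difference of 1.16 (adjusted p 0.000548). The activin type II receptor ACVR2B rose from 0.833 to 2.70 TPM (adjusted p 0.00603), and the BMP and activin type I receptor ACVR1 rose from 2.39 to 4.53 TPM (adjusted p 0.00985). ACVR2B reached 1 TPM in 1 control library and in all 3 of the knockdown, so it passed the filter mainly through the group where it was higher.

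Among 10 genes for proteins that recruit, modify or work beside SMADs, all were tested, 3 rose and 6 fell, with a median of -0.25. TAB1, which activates the kinase TAK1 on the SMAD-independent arm, fell from 31.1 ± 1.47 to 16.5 ± 1.66 TPM, a log2 difference of -0.88 (adjusted p 0.000175). ZFYVE9, also named SARA, the anchor that presents SMAD2 and SMAD3 to the receptor, fell from 6.73 ± 0.315 to 3.98 ± 0.289 TPM (adjusted p 0.00168). TRIM33, which binds SMAD2, SMAD3 and SMAD4 and acts in erythroid differentiation, rose from 40.0 ± 1.62 to 61.0 ± 1.69 TPM, a log2 difference of 0.60 (adjusted p 0.000178). CREBBP, a histone acetyltransferase that SMADs recruit, rose from 28.3 ± 1.11 to 38.7 ± 1.04 TPM (adjusted p 0.000933).

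Of 15 intracellular inhibitors other than SMAD6 and SMAD7, 12 were tested, 4 rose and 4 fell, with a median of 0.05. The ubiquitin ligase WWP1 rose from 37.3 ± 1.71 to 59.8 ± 0.362 TPM, a log2 difference of 0.67 (adjusted p 0.000110). FKBP1A, which holds type I receptors inactive, fell from 207 ± 6.20 to 129 ± 10.1 TPM, a log2 difference of -0.68 (adjusted p 0.000163). TOB1, an inhibitor of BMP signalling, fell from 25.5 ± 0.911 to 14.9 ± 0.561 TPM (adjusted p 0.000149), and the corepressor TGIF2 from 11.2 ± 1.21 to 3.69 ± 1.51 TPM, a log2 difference of -1.42 (adjusted p 0.00106). The 66.7% of this list past the threshold stands beside 53.6% of all genes tested, with 22.1% higher and 31.5% lower.

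Of 16 extracellular regulators, 9 were tested, 2 rose and 3 fell. FSTL3, a secreted antagonist of activin and related ligands, was at 4.23, 2.46 and 2.76 TPM in the knockdown and 14.5, 12.4 and 14.7 TPM in the controls (log2 fold change -1.86, adjusted p 0.000107). NBL1, a secreted BMP antagonist, fell from 173 ± 15.5 to 75.3 ± 2.68 TPM, a log2 difference of -1.19 (adjusted p 3.4e-05). FBN1, the microfibril protein fibrillin, fell to 49.0% of control (adjusted p 0.000105). LTBP3, which binds latent TGF-beta outside the cell, rose from 5.12 ± 0.438 to 17.7 ± 3.49 TPM, a log2 difference of 1.60 (adjusted p 0.000130).

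**Figure D4:**
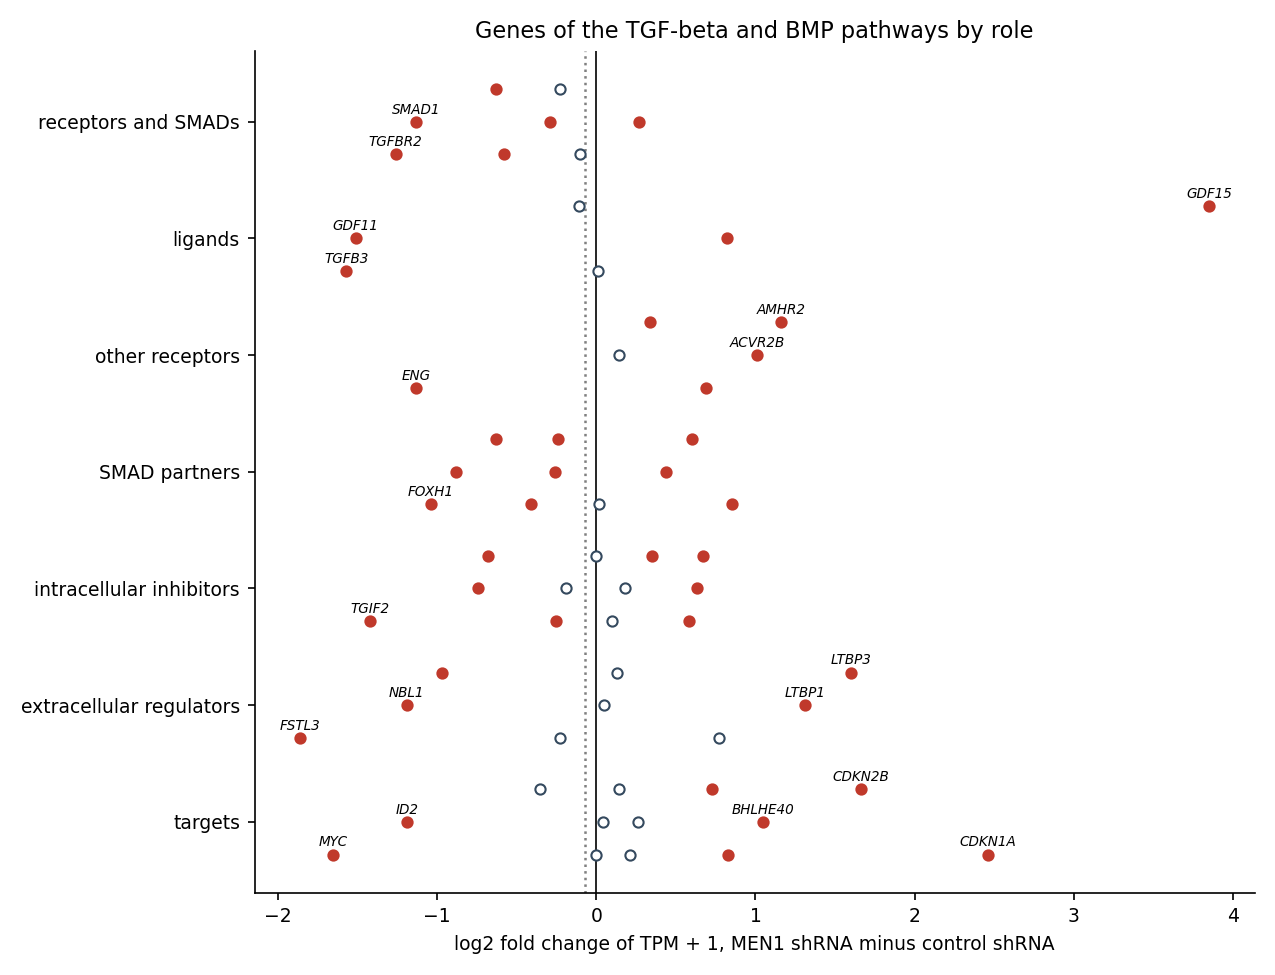
Log2 fold change of TPM + 1 (x axis, MEN1 shRNA minus control shRNA) of the 8 tested receptors and SMADs and of the 56 tested genes of the 6 pathway lists, 1 point a gene, filled red past an adjusted p of 0.05 and open otherwise; height within a row only separates points, genes beyond 1 in size are named, and the dotted line is the median of all genes. Receptors and SMADs lie mostly to the left of 0, while every list has red points on both sides and GDF15 stands apart at 3.85.

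Of 19 genes known as targets of the pathways in other cells, 13 were tested, 5 rose, 2 fell and 6 did not pass, with a median of 0.21. ID1, the classical target of SMAD1 and SMAD5, was at 11.2, 14.0 and 14.5 TPM in the knockdown and 20.6, 16.6 and 14.4 TPM in the controls. The groups overlapped, and its log2 fold change of -0.35 had an adjusted p of 0.0837. Without control replicate 3 it was -0.46 and passed, with an adjusted p of 0.0411.

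The 4 targets with the lowest adjusted p were CDKN1A, CDKN2B, MYC and KLF10. CDKN1A (the inhibitor p21) was at 12.2, 20.3 and 17.1 TPM in the knockdown and 2.80, 1.82 and 1.84 TPM in the controls (log2 fold change 2.46, adjusted p 7.6e-05). CDKN2B (the inhibitor p15) rose from 8.25 ± 1.83 to 28.3 ± 5.98 TPM, a log2 difference of 1.66 (adjusted p 0.000282). MYC, which TGF-beta represses in other cells, was at 91.9, 63.7 and 66.8 TPM against 227, 240 and 231 TPM in the controls (log2 fold change -1.65, adjusted p 6.4e-05). KLF10, an early response gene of TGF-beta, rose from 26.3 ± 1.10 to 47.7 ± 2.35 TPM, a log2 difference of 0.83 (adjusted p 7.8e-05). Each of these genes also answers to other pathways, and SMAD binding was not measured.

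Markers of other blood cells that the culture could hold were read in the same way. Of 6 megakaryocyte genes, PF4 and PPBP were listed at 0 in every library, and the summed level of 16.6 to 21.3 TPM in the knockdown and 31.8 to 36.7 TPM in the controls was nearly all ITGA2B. Mast cell, basophil and eosinophil genes summed to 475 to 561 against 709 to 828 TPM, mostly TPSAB1 and PRG2, with CLC listed at 0 and CPA3 and HDC below 1 TPM. The 5 myeloid markers summed to 0.396 to 0.964 TPM in the knockdown and 2.13 to 2.40 TPM in the controls. LYZ, the one of them tested, was lower, at 0.151 to 0.268 TPM against 1.27 to 1.67 TPM (adjusted p 0.00116). It reached 1 TPM only in the controls and was tested through them alone. The 5 lymphoid markers summed to 0.407 to 0.946 TPM and 0.543 to 1.04 TPM. The part of these markers in the results was not tested.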

How the data were processed

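Libraries were poly(A)-selected and strand-marking, per the labels' protocols. The submitters' processing notes name FastQC, Trimmomatic, STAR 2.7.1a, Picard 2.20.4, StringTie 2.0.4 and hg38; the sources used here do not give the annotation or the strand setting. The authors deposited 1 gene table per library, with TPM that sum to 1000000, FPKM and coverage (signal per base), per the file headers. In control replicate 2, values just below 0 for 2 genes were set to 0. These tables hold no read counts; depth came from the ratio of coverage to FPKM.

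Genes with TPM of at least 1 in at least 3 libraries were tested on log2(TPM + 1) with limma 3.58.1 in R 4.3.3 (lmFit, eBayes with trend, 2-sided, Benjamini-Hochberg over 14294 genes, threshold 0.05). On simulated data of 14294 genes it recovered 83% of 100 genes changed by 1 on the log2 scale and 92% of 100 changed by 2. There were 9 false calls among the unchanged genes. The simulated noise was independent and far fewer genes changed than were called here, so these rates may not carry over. Ratios used exact permutation tests in SciPy 1.17.1. The genes and lists were chosen with earlier results of these data known. Named are MEN1, the 10 genes, up to 4 genes per list with the lowest adjusted p (both directions), and ID1 and SMAD9 whatever their values; 1 further gene that the rule names is not reported here.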

Additional observations from a re-analysis of the deposited data

How the results depend on the processing

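Of 120 comparisons of a SMAD or receptor gene with an alternative (15 for each of 8 genes), 100 kept their direction and their side of the threshold, and so did 393 of 398 for the named pathway genes. SMAD1, SMAD3, SMAD5 and TGFBR2 passed in all 15. Calls among the 8 ranged from 4 to 6, calls on the pathway lists from 30 to 39 and calls over all genes from 6345 to 7852. The numbers tested differed: the 30 and the 6345 came with a mean TPM of 5 or more, which left 10188 genes. Without a filter 6847 of 35241 genes passed, and the 7852, from gene coverage, were of 14294. The SMAD2 log2 fold change ran from -0.24 to 0.18 on leaving out 1 library, positive without control replicate 1 (0.18), and was 0.08 with gene coverage. The log2 ratio differences from coverage were -0.22 (SMAD1/SMAD5), 1.08 (SMAD2/SMAD3) and 1.11 (TGFBR1/TGFBR2), and the last was 1.04 from TPM + 1; the cause was not tested. AMH lost its call with no filter, with coverage (0.67) and without MEN1 shRNA replicate 2 (0.80) or 3 (0.75).

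Leaving out 1 library at a time gave 4 to 5 calls among the 8, 34 to 39 on the lists and 6577 to 7542 over all genes. It gave -2.46 to -2.38 for MEN1, and -0.69 to -0.37, 0.36 to 0.89 and 1.19 to 1.42 for the 3 ratios in the order above. Scaling by median of ratios moved the median of all genes from -0.07 to 0.0078. Across genes, the deviations of same-numbered libraries from their group means had correlations of 0.017, -0.027 and -0.012. Differently numbered libraries were not set beside them, so whether the numbers pair the samples was not tested. With the replicate block, 4 of the 8, 36 list genes and 7012 genes passed. In this balanced design the block cannot move a mean difference. The -2.42 for MEN1 and the ratio differences of -0.58, 0.55 and 1.30 were thus fixed beforehand. The exact p of the ratios, from sign flips within the blocks, was 0.25, 0.5 and 0.25, where 0.25 is the smallest possible.

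The depth behind SMAD6 and SMAD7 and the number of replicates limit the precision.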

Other observations

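The nearest tested gene with a symbol on either side of each gene was read from the same fit, as a description. Such a gene can be far away: AAGAB lies 5.49 kb from SMAD3, SLC25A48 243 kb and HNRNPA0 1557 kb from SMAD5. IER3IP1 and CTIF lie 633 and 608 kb from SMAD2, and ZWILCH 514 kb from SMAD3. On either side of TGFBR2, AZI2 (2258 kb away) had a log2 fold change of -0.01 with an adjusted p of 0.975, and STT3B (838 kb away) fell by 0.19 (adjusted p 0.0303), against -1.26 for TGFBR2. Beside SMAD1, OTUD4 rose by 0.28 (adjusted p 0.0471) and MMAA had a log2 fold change of -0.29 (adjusted p 0.334), against -1.13 for SMAD1. Beside SMAD5, SLC25A48 fell from 2.81 ± 0.414 to 0.247 ± 0.143 TPM (SD, n = 3 each; adjusted p 0.000192), tested through its control libraries alone, and HNRNPA0 fell by 0.26. Beside BMPR2, which was at 80.1% of control, FAM117B was at 19.0% (log2 fold change -1.90, adjusted p 0.000266) and NOP58 at 83.3%. Beside TGFBR1, neither COL15A1 (-0.08) nor ALG2 (-0.20) passed. SMAD3 lies between ZWILCH, which fell by 0.94, and AAGAB, at -0.18 (adjusted p 0.0800). Beside SMAD4, which was higher, ELAC1 was at -0.14 (adjusted p 0.324) and MEX3C fell by 0.74. Beside SMAD2, IER3IP1 rose by 0.79 and CTIF fell by 0.75, and SMAD7 lies between CTIF and DYM (-0.15, adjusted p 0.0639). SMAD6 lies between ZWILCH and SMAD3.

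Stromal and endothelial markers were near 0 in 5 libraries but reached a summed 4.48 TPM in 1 control, replicate 2, with COL1A1 at 2.24 and COL1A2 at 2.02 TPM. CDH5 was listed at 0 in every library.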
